A study of Mus musculus with 18 samples.

Results

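Messenger RNA of 10 receptor genes through which myeloid cells read growth factors and inflammatory cytokines was followed in mouse leukemia cells and in normal blood progenitors. The genes were chosen by symbol, with no measured value in the rule, though with earlier results of these data known. They were Csf2ra, Csf2rb, Csf2rb2, Csf3r, Il3ra, Il6ra, Il6st, Ifngr1, Il1rl1 and Il1r2. Of these, 9 had a probe set (a group of probes read as 1 value) naming that gene alone, and each had only 1 such probe set. Il1rl1, the IL-33 receptor, was not analysed here. All 9 passed the filter on dim genes, among 16337 genes tested of the 22180 that had a probe set of their own.

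Most of these receptors are built from a chain that binds the ligand and a chain that signals. CSF2RA and IL3RA bind GM-CSF and IL-3, and signal through the common beta chain encoded by Csf2rb, while Csf2rb2 encodes a mouse beta chain that works with the IL-3 receptor. CSF3R, the G-CSF receptor that drives neutrophil production, pairs with itself, IL6RA hands IL-6 to the shared signalling chain gp130 (gene Il6st), and IFNGR1 binds interferon gamma beside its partner IFNGR2. These chains signal through JAK kinases and STAT proteins. IL1R2 is a decoy that binds IL-1 without signalling.

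AML cells (acute myeloid leukemia) were sorted by GFP and carried the MLL-AF9 fusion, which turns progenitors leukemic. LSK cells, sorted as lineage-negative and positive for Kit and Sca1, are a normal marrow fraction that holds blood stem cells. Both cell types, per the labels, came from 4F mice, which carry transgenes for Oct4, Sox2, Klf4 and c-Myc under control of doxycycline (Dox), so the control groups carry the transgenes too. Each cell type was measured as Control, after Dox, and after Compound for 24 h in vitro, with 3 arrays a group. Compound combined VPA (against histone deacetylases), CHIR (against GSK3), 616452 (against the TGF-beta receptor) and TCP (against LSD1). Doses, the medium and its cytokines, the age of the mice and whether the Control cells were kept in culture for the same 24 h are not given in the labels. The arrays of a group are labelled biological repeats without a word on animals or cultures, and p-values therefore cover the spread among these arrays, which may be technical. The cells were measured in bulk, so fewer cells of a type and less RNA per cell cannot be told apart.

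Values are log2 expression per probe set, and a log2 difference of 1 is a doubling. LSK Compound replicate 1 was left out: it correlated with the other arrays at r of 0.638 to 0.672, while the other 17 correlated at 0.979 to 0.989 within a group and 0.904 to 0.979 across groups. LSK Compound therefore rests on 2 arrays. On those 2 arrays the RNA Xist, which silences an X chromosome in females, read 7.35 and 7.32 against 9.28 to 9.77 in LSK Control and LSK Dox, and the Y-linked Eif2s3y read 5.47 and 5.20, Kdm5d 4.30 and 4.54 and Uty 5.03 and 5.13 against at most 2.67 on the other arrays used. These Y-linked genes were also higher in AML Compound than in AML Control, by 0.46, 0.40 and 0.44 in that order. There they read 2.21 to 2.67 against 1.84 to 2.27. The part of these sex-linked differences in the Compound results of either cell type was not tested. Of 81 receptor differences tested (9 genes in 9 comparisons), 55 passed a limma adjusted p of 0.05. When all 18 arrays were fitted, 25 of these 55 still passed. The array added there belongs to LSK Compound. Receptor differences that did not involve that group kept their values, and only their SE and p-values changed.

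For 8 of the 9 genes RefSeq's table for GRCm38.p6 held a promoter window. The 250 bases before the gene start, written 5′ to 3′ on the gene's strand, are shown for the 3 genes whose RNA fell most under Dox in AML cells (Csf3r, Ifngr1 and Csf2ra) and for Csf2rb2, which rose most under Compound. Capitals mark matches, on either strand, to the core AGGAAG bound by PU.1 and other Ets factors, to TTGCNNAA (C/EBP), to TTCNNNGAA (STAT) and to CCACCC (Krüppel-like factors such as KLF4), motifs that were chosen after the sequences were seen.
Csf3r promoter, chr4:126024409-126024658, plus strand: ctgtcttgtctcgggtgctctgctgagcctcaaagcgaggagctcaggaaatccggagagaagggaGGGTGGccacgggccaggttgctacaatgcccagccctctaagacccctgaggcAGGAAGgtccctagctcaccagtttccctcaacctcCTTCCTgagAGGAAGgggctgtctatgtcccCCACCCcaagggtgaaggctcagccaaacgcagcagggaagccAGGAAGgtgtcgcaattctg
Ifngr1 promoter, chr10:19591699-19591948, plus strand: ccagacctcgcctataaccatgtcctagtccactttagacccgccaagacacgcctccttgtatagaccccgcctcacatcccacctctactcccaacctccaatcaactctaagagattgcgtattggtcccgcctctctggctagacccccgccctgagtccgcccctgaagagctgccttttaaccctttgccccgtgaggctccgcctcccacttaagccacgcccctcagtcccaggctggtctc
Csf2ra promoter, chr19:61228419-61228668, minus strand: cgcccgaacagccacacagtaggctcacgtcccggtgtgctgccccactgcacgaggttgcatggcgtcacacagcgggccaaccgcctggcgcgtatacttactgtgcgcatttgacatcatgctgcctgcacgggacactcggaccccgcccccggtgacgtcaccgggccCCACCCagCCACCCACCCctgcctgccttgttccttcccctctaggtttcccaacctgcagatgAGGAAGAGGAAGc
Csf2rb2 promoter, chr15:78305722-78305971, minus strand: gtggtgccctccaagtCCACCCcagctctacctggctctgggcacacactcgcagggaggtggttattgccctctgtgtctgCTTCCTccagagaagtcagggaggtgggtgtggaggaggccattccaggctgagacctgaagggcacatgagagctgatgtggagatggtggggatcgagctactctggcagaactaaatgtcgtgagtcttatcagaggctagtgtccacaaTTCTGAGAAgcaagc
The Csf3r window held AGGAAG at 4 places, the nearest 20 to 15 bases before the start, and CCACCC at 2. Csf2ra carried AGGAAG at 13 to 8 and again at 7 to 2 bases before the start, and CCACCC at 3 places, of which the nearest 2 overlap each other. In Csf2rb2 there was 1 AGGAAG, 1 CCACCC and, 15 to 7 bases before the start, a match to the STAT pattern TTCNNNGAA. That pattern, though not the bases between its fixed letters here, reads the same on both strands. Ifngr1 held none of the 4 motifs in this window. No match to 1 motif overlapped a match to another in these windows. AGGAAG lay in 5 of the 8 receptor windows (Csf2ra, Csf2rb2, Csf3r, Il3ra and Il6ra) and in 29.5% of 32851 windows of the same length. CCACCC lay in 4 of 8 and in 28.1% of all windows, the STAT letters in 2 of 8 (Csf2rb2 and Il1r2) and 7.02%, and the C/EBP letters in 1 of 8 (Il3ra) and 9.56%. A match describes letters and is not a binding site.

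In AML cells Dox lowered RNA of the G-CSF receptor Csf3r and of the ligand-binding chains Ifngr1 and Csf2ra, and raised the shared chain Il6st. Of the 9 genes 4 fell (Csf3r, Ifngr1, Csf2ra and Csf2rb2) and 2 rose (Il6st and Il3ra), where 25.6% of all genes tested fell and 23.0% rose. The median receptor difference was -0.30 against -0.01 over all genes. Progenitor markers moved with this comparison: their mean level per array was 5.30 to 5.38 in AML Control and 3.70 to 3.72 in AML Dox, where 3 of 4 tested fell, with Cd34 at -5.23, and 1 rose. Their part in the receptor differences was not tested. Over all 18 arrays 4 passed, and Ifngr1 (adjusted p = 0.181) and Csf2rb2 (adjusted p = 0.921) did not, with the differences themselves as before.

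Compound in AML cells raised most of the set, with Csf2rb2 and Csf2rb in front. Csf2rb2, Csf2rb, Ifngr1, Il6st, Il1r2 and Csf2ra rose and Csf3r fell, which is 6 higher and 1 lower of 9, beside 12.8% of all genes higher and 19.2% lower. The median was 0.55 against -0.03 over all genes. With all 18 arrays no receptor passed in this comparison by limma (3 at an unadjusted p under 0.05), with the differences themselves as before.

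Dox in LSK cells changed 3 of the receptors. Csf3r and Csf2rb2 fell and Il6ra rose, 2 lower and 1 higher of 9 beside 9.93% lower and 9.21% higher among all genes, and the median was -0.20 against -0.05. Over all 18 arrays 2 passed, and Csf2rb2 did not (adjusted p = 1.0), with the differences themselves as before. Compound in LSK cells raised Csf2rb2, Csf2rb, Il1r2, Il3ra and Ifngr1 and lowered Il6ra and Csf3r, 5 higher and 2 lower beside 14.2% and 20.0% of all genes. Here the median was 0.28 against -0.05. With all 18 arrays 4 passed, and those that did not were Csf2rb2 (1.14, adjusted p = 0.434), Il1r2 (0.52, adjusted p = 0.291) and Ifngr1, which turned to -1.57 (adjusted p = 0.254).

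**Figure D1:**
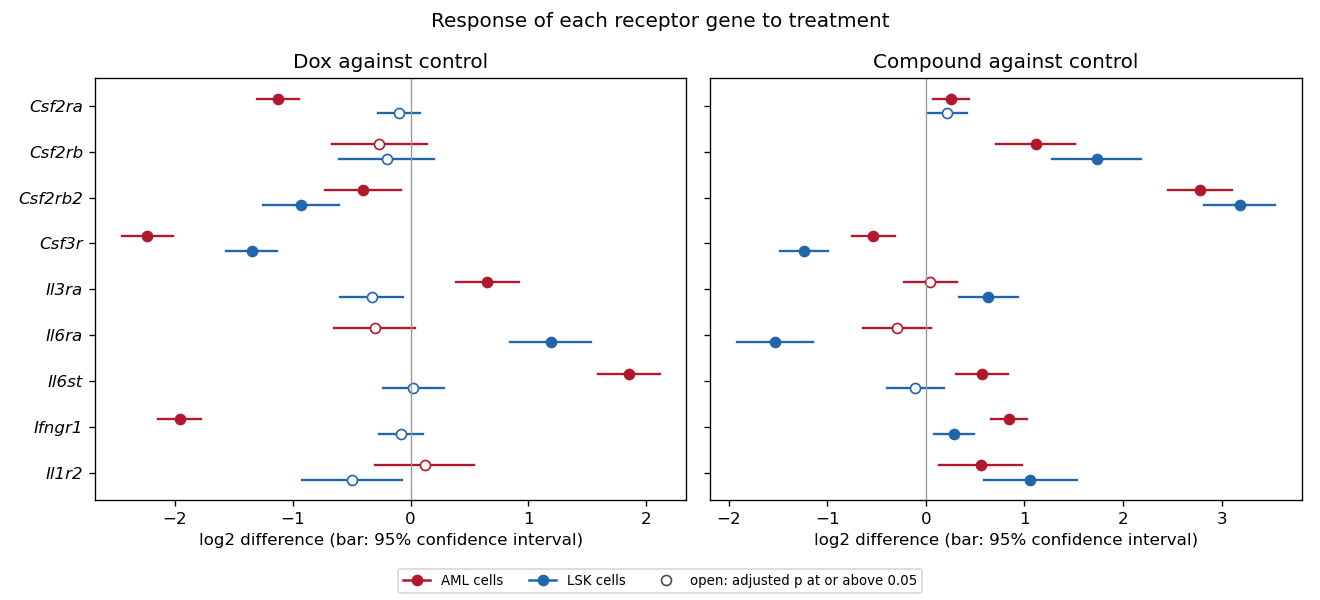
Log2 difference of each of the 9 receptor genes from its own control, with Dox on the left and Compound on the right. Points are limma estimates from 3 arrays a group (2 for LSK Compound) with their 95% confidence intervals, red for AML and blue for LSK cells, and open points did not pass an adjusted p of 0.05. Csf3r lies below 0 in all 4 responses, and Csf2rb2 reaches 2.78 and 3.18 under Compound.

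Csf2ra, the chain that binds GM-CSF, was highest in AML cells with Compound and lowest in AML cells with Dox. AML Control arrays read 7.67, 7.75 and 7.64, AML Dox 6.56, 6.49 and 6.65, and AML Compound 7.95, 8.0 and 7.88. These 3 groups did not overlap. Dox lowered Csf2ra by a log2 difference of -1.12 (SE 0.08, limma adjusted p = 3.63e-09), or 2.18-fold. Compound gave 0.25 (SE 0.08, adjusted p = 0.0283), a call that ended without AML Control replicate 1 (adjusted p = 0.0762), AML Control replicate 3 (0.0949), AML Compound replicate 1 (0.0668) or AML Compound replicate 2 (0.0843), in the fit on the 2 groups alone (0.0761) and with arrays centred on their medians (0.0556). In LSK cells the Control arrays read 6.94, 6.97 and 6.74, the Dox arrays 6.80, 6.82 and 6.73 and the Compound arrays 7.07 and 7.11. Neither treatment's difference from LSK Control passed: Dox gave -0.10 (95% interval -0.28 to 0.08) and Compound 0.21 (0.01 to 0.41). The Compound difference passed with array weights on all 18 arrays (0.19, adjusted p = 0.0196) and turned to -0.27 with all 18 arrays unweighted.

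Il3ra, the chain that binds IL-3, rose with Dox in AML cells and with Compound in LSK cells. It read 5.45, 5.23 and 5.34 on AML Control, 5.84, 6.01 and 6.13 on AML Dox and 5.52, 5.32 and 5.31 on AML Compound arrays. All AML Dox arrays lay above all AML Control arrays, by 0.65 on the log2 scale (SE 0.13, limma adjusted p = 0.000264). AML Compound overlapped the control (0.05, 95% interval -0.22 to 0.31). LSK Control arrays read 4.80, 4.63 and 4.56, LSK Dox 4.50, 4.02 and 4.48, and LSK Compound 5.23 and 5.36. The LSK groups did not overlap, with Compound highest and Dox lowest. Compound gave 0.63 (SE 0.14, adjusted p = 0.00177), while the Dox difference of -0.33 did not pass (95% interval -0.60 to -0.06, adjusted p = 0.0801) but passed with array weights on all 18 arrays (-0.36, adjusted p = 0.0364).

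Csf2rb2, the mouse beta chain of the IL-3 receptor, showed the largest receptor rise in each cell type, under Compound. It read 4.50, 4.66 and 4.31 on AML Control, 3.92, 4.37 and 3.97 on AML Dox and 7.40, 7.29 and 7.14 on AML Compound arrays. The lowest AML Compound array lay above every AML Control array by more than the spread within either group. Compound raised Csf2rb2 by 2.78 (SE 0.15, limma adjusted p = 4.06e-10), 6.88-fold, which ranked 69 by size among the 16337 genes. AML Dox overlapped the control at its top array and gave -0.40 (adjusted p = 0.0364), a call lost without AML Control replicate 1 (0.0780), AML Control replicate 2 (0.145), AML Dox replicate 1 (0.143) or AML Dox replicate 3 (0.123) and with array weights (0.0567). LSK Control arrays read 6.48, 6.33 and 6.23, LSK Dox 5.77, 5.35 and 5.15, and LSK Compound 9.54 and 9.52. The 3 LSK groups stood apart, with Compound 3.18 above the control (SE 0.17, adjusted p = 1.32e-10, 9.09-fold) and Dox 0.93 below it (log2 difference -0.93, SE 0.15, adjusted p = 0.000291). The LSK Compound replicate 1 array that was left out read 3.39.

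Csf2rb, the common beta chain, rose with Compound in both cell types. AML Control arrays read 4.52, 4.44 and 4.45, AML Compound arrays 5.84, 5.35 and 5.57, and the log2 difference was 1.11 (SE 0.19, limma adjusted p = 0.000214). LSK Control arrays read 4.70, 4.72 and 5.10 and LSK Compound 6.51 and 6.64, a difference of 1.73 (SE 0.21, adjusted p = 5.01e-06). In each cell type the Compound arrays lay above all Control arrays. Dox arrays of both cell types overlapped their controls, at 3.67, 4.57 and 4.39 in AML cells and 4.85, 4.45 and 4.60 in LSK cells. Their differences were -0.27 (95% interval -0.67 to 0.14) and -0.20 (-0.61 to 0.20), and AML Dox replicate 1 set the sign in AML cells, where the difference was 0.0042 without it. Csf2rb and Csf2rb2 are near copies that neighbour each other on chromosome 15. The probe sequences were not used here, and whether the probes of either gene read RNA of the other was not tested.

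Csf3r was the receptor that fell in all 4 responses. AML Control arrays read 6.76, 6.95 and 6.77, AML Dox 4.72, 4.61 and 4.44, and AML Compound 6.39, 6.19 and 6.29. None of these groups overlapped. Dox lowered Csf3r by -2.24 (SE 0.10, limma adjusted p = 5.94e-12), 4.71-fold, and Compound by -0.53 (SE 0.10, adjusted p = 0.000624). LSK Control arrays read 7.38, 7.25 and 7.29, LSK Dox 6.10, 5.96 and 5.80, and LSK Compound 6.15 and 5.97. Both treated LSK groups lay below all control arrays and overlapped each other, at -1.35 with Dox (SE 0.10, adjusted p = 4.22e-08) and -1.24 with Compound (SE 0.11, adjusted p = 1.66e-07). By size the LSK Dox difference ranked 268 of 16337 genes.

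Since neutrophils carry much Csf3r, a list of 10 markers of maturing neutrophils was read beside it. Their mean log2 level per array was 2.96 to 3.06 in AML Control, 2.99 to 3.17 in AML Dox and 3.81 to 3.83 in AML Compound. Ltf, Camp, Ly6g and S100a9 were each below the filter level on 1 or more arrays of every AML group. In LSK cells the mean was 5.32 to 5.52 in Control, 4.86 to 4.90 in Dox and 4.49 to 4.50 in Compound. Ly6g was below the filter level on 1 or more arrays of each LSK group. Of 9 neutrophil markers tested, 5 fell and 0 rose with Dox in LSK cells and 5 fell and 2 rose with Compound. In AML cells 0 fell and 1 rose with Dox and 1 fell and 3 rose with Compound. Those 3 were Mmp8 (5.64), Mmp9 (3.18) and Lcn2 (0.79), while S100a8 fell (-0.59). With Compound in LSK cells the 2 that rose were Mmp8 (3.52) and Lcn2 (0.56). Those that fell were Ngp (-3.14), Ltf and Camp (-2.61 each), S100a8 (-2.40) and S100a9 (-1.87). The part of neutrophils in the LSK Csf3r differences was not tested.

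**Figure D2:**
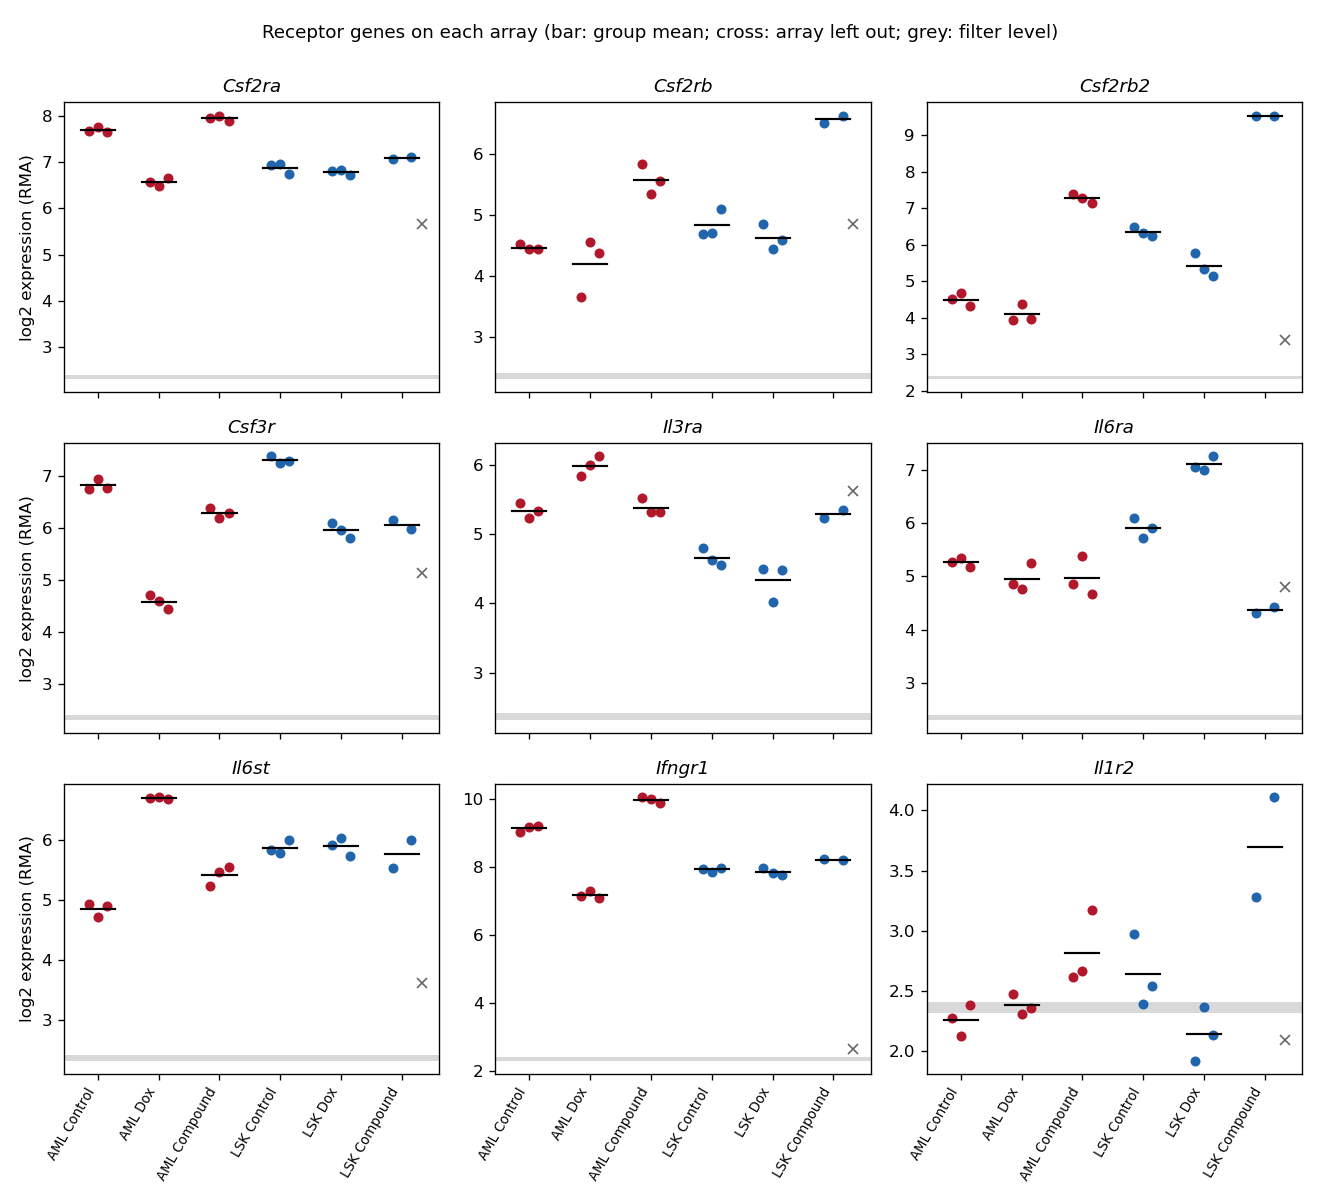
Log2 expression of each of the 9 receptor genes on every array used, 1 panel per gene with its own axis, by cell type and treatment. Each point is 1 array (red AML, blue LSK), each bar a group mean, the cross the array left out and the grey band the filter level. Csf3r, Ifngr1 and Csf2ra drop in AML Dox, and Csf2rb2 climbs in both Compound groups.

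The IL-6 receptor chains responded to Dox in different cell types. Il6st read 4.93, 4.72 and 4.90 on AML Control, 6.70, 6.72 and 6.69 on AML Dox and 5.23, 5.47 and 5.55 on AML Compound arrays. The 3 AML groups did not overlap: Dox raised Il6st by 1.86 (SE 0.12, limma adjusted p = 6.74e-10), 3.62-fold, and Compound by 0.57 (SE 0.12, adjusted p = 0.00161). LSK arrays overlapped across treatments, with 5.85, 5.78 and 6.0 in Control, 5.92, 6.04 and 5.75 with Dox and 5.53 and 6.0 with Compound. The LSK differences were 0.02 (95% interval -0.24 to 0.28) and -0.11 (-0.40 to 0.18), and each changed sign when an array was left out. Only with array weights on all 18 arrays did the LSK Compound difference pass (-0.34, adjusted p = 0.00206).

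Il6ra, the chain that binds IL-6, moved in LSK cells and in opposite directions. LSK Control arrays read 6.09, 5.72 and 5.91, LSK Dox 7.04, 7.0 and 7.25, and LSK Compound 4.32 and 4.42. No LSK group overlapped another: Dox raised Il6ra by 1.19 (SE 0.16, limma adjusted p = 4.39e-05), 2.28-fold, and Compound lowered it by -1.53 (SE 0.18, adjusted p = 3.31e-06), 2.89-fold. AML arrays read 5.26, 5.35 and 5.18 in Control, 4.86, 4.77 and 5.25 with Dox and 4.86, 5.39 and 4.67 with Compound, and the groups overlapped. The AML differences of -0.30 (95% interval -0.65 to 0.04) and -0.29 (-0.64 to 0.05) did not pass, although the first passed without AML Dox replicate 3 (-0.45, adjusted p = 0.0382) and the other without AML Compound replicate 2 (-0.50, adjusted p = 0.0143). The array does not tell membrane-bound from soluble forms of IL6RA. Of the proteases that shed it, Adam10 rose with Dox in AML cells (0.75, adjusted p = 4.91e-07) and fell with Compound in AML (-0.32, adjusted p = 0.00589) and LSK cells (-0.82, adjusted p = 1.75e-06), and Adam17 rose with Compound in AML (0.46) and LSK cells (0.48).

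Ifngr1 responded mainly in AML cells. AML Control arrays read 9.04, 9.19 and 9.21, AML Dox 7.15, 7.30 and 7.10, and AML Compound 10.06, 10.01 and 9.90. These groups did not overlap, and Dox lowered Ifngr1 by -1.96 (SE 0.09, limma adjusted p = 4.22e-12), 3.89-fold, while Compound raised it by 0.84 (SE 0.09, adjusted p = 1.18e-06), 1.79-fold. LSK arrays read 7.96, 7.87 and 7.98 in Control, 7.96, 7.84 and 7.76 with Dox and 8.24 and 8.20 with Compound. LSK Dox overlapped its control (-0.08, 95% interval -0.27 to 0.10). LSK Compound lay 0.28 above it (SE 0.10, adjusted p = 0.0322), a call lost without LSK Control replicate 1 (0.0540) or replicate 2 (0.0978), without LSK Compound replicate 2 (0.142) or replicate 3 (0.0933), in the fit on the 2 groups alone (0.0712) and with arrays centred on their medians (0.0707). The partner chain Ifngr2 rose where Ifngr1 fell: in AML Dox it gained 1.17 (SE 0.08, adjusted p = 9.61e-10). It also rose with Compound, by 1.34 in AML cells (adjusted p = 1.20e-09) and 1.66 in LSK cells (adjusted p = 1.44e-10).

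Il1r2, the IL-1 decoy, lay near the filter level (2.32 to 2.41 across arrays) and was above it on 11 of 17 arrays. AML Control arrays read 2.28, 2.12 and 2.39 and AML Compound 2.61, 2.67 and 3.17, without overlap. The difference of 0.55 (limma adjusted p = 0.0430) was lost with all 18 arrays and under 10 other alternatives, among them leaving out AML Control replicate 1 (0.0841), replicate 2 (0.135) or replicate 3 (0.0555), AML Compound replicate 3 (0.38, adjusted p = 0.204) and no filter (0.0511). In the other losing alternatives 1 array of AML Dox, LSK Control or LSK Dox was left out and the adjusted p was 0.0503 to 0.0524. LSK Control arrays read 2.98, 2.39 and 2.54 and LSK Compound 3.28 and 4.11, a difference of 1.06 (SE 0.22, adjusted p = 0.00116) that fell to 0.65 (adjusted p = 0.0546) without LSK Compound replicate 3. Dox gave 0.12 in AML cells (95% interval -0.30 to 0.54) and -0.50 in LSK cells (-0.92 to -0.07, adjusted p = 0.0991). The LSK Dox difference did pass when either LSK Compound array was left out (adjusted p = 0.0483 in each case) and with array weights on all 18 arrays (0.0301).

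Whether the responses differed between leukemia and normal cells was tested as the AML difference minus the LSK difference. For Dox, 4 receptors had the lower response in AML cells and 2 the higher, of 9, beside 21.5% and 18.6% of all genes. The lower ones were Ifngr1 (-1.88, SE 0.12, limma adjusted p = 2.14e-09), Il6ra (-1.50, SE 0.23, adjusted p = 4.26e-05), Csf2ra (-1.02, SE 0.12, adjusted p = 1.93e-06) and Csf3r (-0.89, SE 0.15, adjusted p = 8.28e-05). Il6st (1.83, SE 0.17, adjusted p = 1.66e-07) and Il3ra (0.98, SE 0.18, adjusted p = 0.000217) had the higher response in AML cells. So Csf3r fell in both cell types but further in AML cells, and Il6ra differed through its rise in LSK cells. On all 18 arrays 3 passed, and Csf2ra (adjusted p = 0.105), Csf3r (0.0559) and Ifngr1 (0.533) did not, with the differences themselves as before. The median was -0.06 against 0.0048 over all genes. Csf2rb2 (0.52, adjusted p = 0.0641) passed without AML Control replicate 2 (0.0442), AML Dox replicate 1 (0.0456) or LSK Dox replicate 1 (0.70, adjusted p = 0.00869) and with the replicate number as a block (0.0371), and Il1r2 (0.62, adjusted p = 0.0988) without either LSK Compound array (0.0475).

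For Compound, 4 receptors had the higher response in AML cells and 1 the lower, beside 8.69% and 8.37% of all genes, with a median of 0.04 against 0.02. These were Il6ra (1.24, SE 0.24, limma adjusted p = 0.00146), Csf3r (0.71, SE 0.15, adjusted p = 0.00328), Il6st (0.68, SE 0.18, adjusted p = 0.0159), Ifngr1 (0.56, SE 0.13, adjusted p = 0.00590) and, lower, Il3ra (-0.59, SE 0.19, adjusted p = 0.0407). The Il6st call was lost without LSK Compound replicate 2 (0.44, adjusted p = 0.128). Il3ra lost its call with all 18 arrays (-0.70, adjusted p = 0.137) and under 11 other alternatives, with values from -0.65 (adjusted p = 0.0631) without LSK Compound replicate 2 to -0.53 (adjusted p = 0.152) without LSK Compound replicate 3. The beta chains did not pass: Csf2rb2 differed by -0.40 (95% interval -0.88 to 0.08) and Csf2rb by -0.62 (-1.23 to -0.02). Il1r2 differed by -0.50 (-1.14 to 0.13), with a call (-0.92, adjusted p = 0.0417) once LSK Compound replicate 2 was left out. Of these, 1 passed on all 18 arrays.

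In the Control groups AML cells carried more Ifngr1, Csf2ra and Il3ra RNA than LSK cells and less Csf2rb2, Il6st, Il6ra and Csf3r. This was 3 higher and 4 lower of 9, beside 15.4% and 14.2% of all genes, with a median of -0.38 against 0.0047. Ifngr1 differed by 1.21 (SE 0.09, limma adjusted p = 9.77e-09), Csf2ra by 0.81 (adjusted p = 9.32e-07) and Il3ra by 0.68 (adjusted p = 0.000478). Csf2rb2 differed by -1.86 (SE 0.15, adjusted p = 4.87e-08), Il6st by -1.03 (adjusted p = 4.80e-06), Il6ra by -0.64 (adjusted p = 0.00588) and Csf3r by -0.48 (adjusted p = 0.00164). With all 18 arrays 1 of these passed, and the differences themselves stayed as before. Csf2rb (-0.37, adjusted p = 0.174) passed in the fit on the 2 groups alone (0.0493). Of the related receptors, Il1r1, which transmits IL-1 signals, differed by -4.31 (adjusted p = 1.02e-13) and Flt3, a progenitor receptor, by -4.09 (adjusted p = 1.24e-11), while Il10rb was higher by 1.39 (adjusted p = 6.04e-10). Markers of maturing neutrophils were lower in AML Control for 7 of 9 tested and higher for 0, and those of monocytes and macrophages lower for 4 of 7 and higher for 1. Of 4 progenitor markers tested 3 were lower and 0 higher, and of 4 megakaryocyte markers 3 were lower and 0 higher. Xist read 2.38 to 2.63 on AML Control and 9.28 to 9.56 on LSK Control arrays (-6.94, adjusted p = 1.01e-14), while the Y-linked genes above read at most 2.27 in both. The part of Xist and of these markers in the receptor differences was not tested.

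Set directly against each other in AML cells, Dox and Compound gave 5 receptors lower with Dox and 2 higher of 9, beside 24.7% and 23.0% of all genes, with a median of -1.38 against -0.01. Csf2rb2 differed by -3.19 (SE 0.15, limma adjusted p = 1.17e-11), Ifngr1 by -2.80 (SE 0.09, adjusted p = 6.82e-14), Csf3r by -1.70 (adjusted p = 2.45e-10), and Csf2ra and Csf2rb by -1.38 each. Il6st (1.29, adjusted p = 8.94e-08) and Il3ra (0.61, adjusted p = 0.000553) were higher with Dox. All 7 passed with all 18 arrays as well. Il1r2 (-0.44, adjusted p = 0.0869) passed without either LSK Compound array (0.0408). In LSK cells 6 receptors were lower with Dox than with Compound and 1 higher, beside 14.3% and 18% of all genes, with a median of -0.37 against 0.03. The outer values were Csf2rb2 at -4.11 (SE 0.17, adjusted p = 4.56e-12, 17.3-fold) and Il6ra at 2.72 (SE 0.18, adjusted p = 2.21e-09, 6.60-fold). The Csf3r difference of -0.11 did not pass (95% interval -0.35 to 0.14). With all 18 arrays 3 of the 7 passed. Without LSK Compound replicate 2, Csf2ra (-0.33, adjusted p = 0.0558) and Ifngr1 (-0.35, adjusted p = 0.0553) lost their calls, as did Csf2ra without LSK Compound replicate 3 (-0.29, adjusted p = 0.106) or LSK Dox replicate 3 (-0.28, adjusted p = 0.0558) and in the fit on the 2 groups alone (0.0558). The AML comparisons share their control arrays, as do the LSK ones.

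Read across the 6 groups, Csf2ra and Ifngr1 had the same order of means: AML Compound, AML Control, LSK Compound, LSK Control, LSK Dox and AML Dox. In both only LSK Control and LSK Dox overlapped among neighbours. Csf2rb2 ran from LSK Compound through AML Compound, LSK Control, LSK Dox and AML Control to AML Dox, and only the last 2 overlapped. Csf2rb had the same order, with every neighbouring pair from LSK Control down overlapping. For Csf3r the order was LSK Control, AML Control, AML Compound, LSK Compound, LSK Dox and AML Dox, with overlap only between LSK Compound and LSK Dox. Il3ra was highest in AML Dox and lowest in LSK Dox, and AML Compound, AML Control and LSK Compound overlapped as neighbours. Il6ra was highest in LSK Dox and lowest in LSK Compound, with the 3 AML groups overlapping between LSK Control and LSK Compound. Il6st was highest in AML Dox and lowest in AML Control, with the 3 LSK groups and AML Compound overlapping in turn between them. For Il1r2 only LSK Compound, the highest, stood clear of its neighbour.

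The genes nearest each receptor in group profile were found from the 6 group means, each gene centred on its own mean, as the root mean square difference in log2 units over those 6 points. For Csf2ra they were Derl1 (0.06) and Pgap2 (0.09), for Il3ra Stxbp5 (0.10) and H2-K1 (0.12), for Csf2rb Cables1 (0.15) and Tnfrsf26 (0.16). For Csf2rb2 the nearest were further off, Ccrl2 at 0.36 and Ccl2 at 0.45. Csf3r lay nearest Mcrip2 (0.16) and Mybl2 (0.21), Il6ra nearest Net1 (0.17) and Tpcn1 (0.25), and Il6st nearest Scaper (0.15) and Pag1 (0.16). Ifngr1 lay nearest Gsr (0.12) and Mcfd2 (0.18), and Il1r2 nearest Mb21d2 (0.12) and Ptges (0.13). Among the receptors themselves the nearest pairs were Csf2rb with Il1r2 (0.36) and Csf2ra with Ifngr1 (0.44). The measure was not scaled to a gene's range. Group means ran only from 2.14 to 3.70 for Il1r2, which lay near the filter level, and from 2.10 to 3.37 for Mb21d2.

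**Figure D3:**
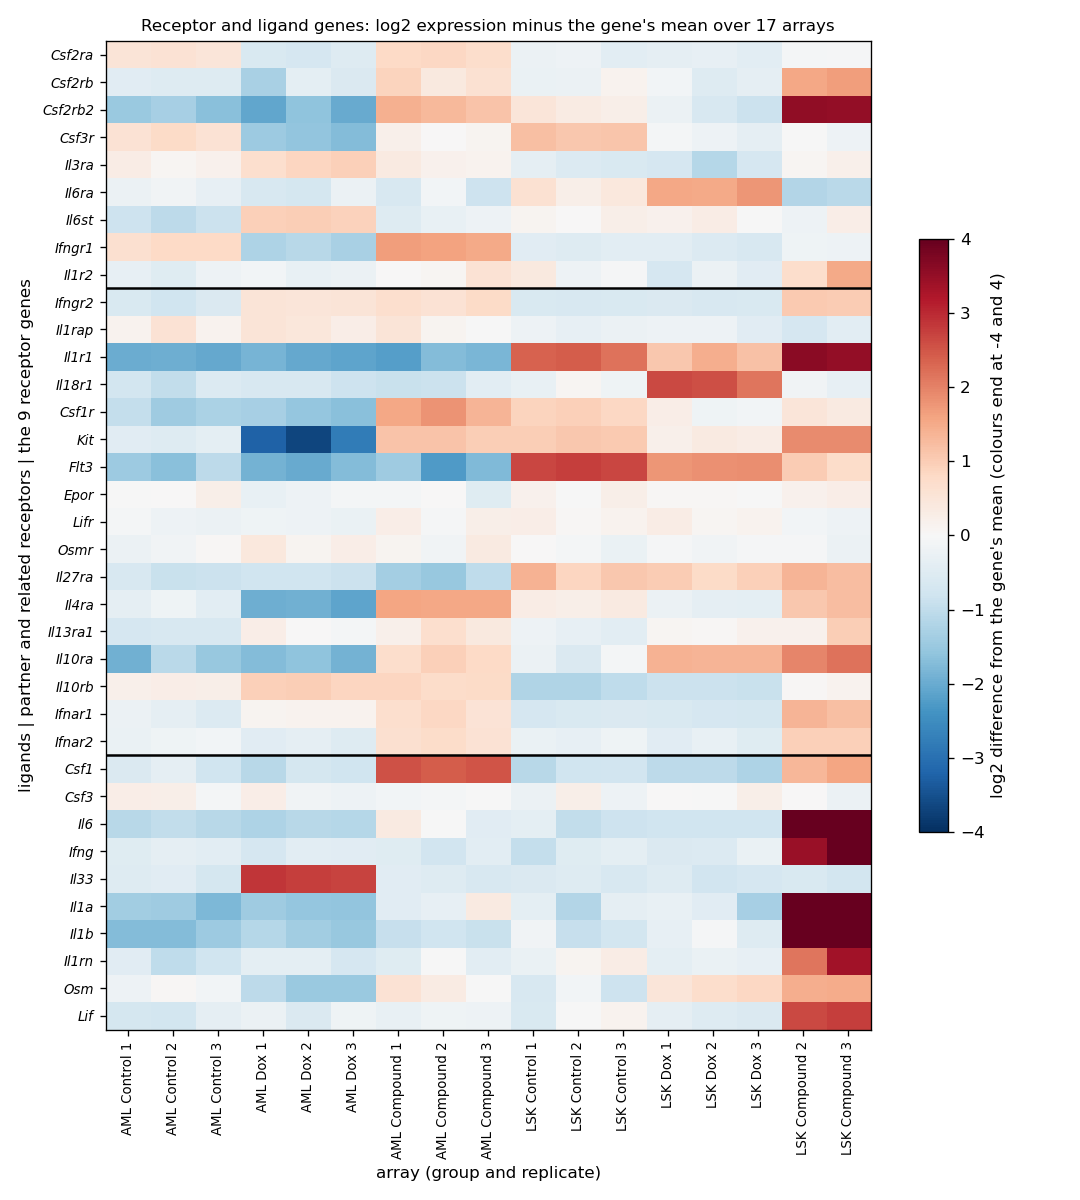
Log2 expression of each gene on each of the 17 arrays (columns) minus that gene's mean over them, as colour from blue (lower) to red (higher). Rows are the 9 receptor genes at the top, then 17 partner and related receptors, then 10 ligands, and colours end at differences of 4 either way. Il1b, Il1a and Il6 stand out in LSK Compound, and Il33 in AML Dox.

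Other receptors and ligands of the same pathways came from lists of pathway genes. The counts that follow stand beside the shares of all genes tested, which were 23.0% higher and 25.6% lower for AML Dox, 12.8% and 19.2% for AML Compound, 9.21% and 9.93% for LSK Dox, and 14.2% and 20.0% for LSK Compound. Of 17 partner and related receptors tested (of 21), 5 rose and 4 fell with Dox in AML cells (median -0.02). Kit, the stem cell factor receptor, fell by 2.78 on the log2 scale (SE 0.15, limma adjusted p = 4.11e-11) and Il4ra, the IL-4 receptor chain, by 1.68 (adjusted p = 5.17e-11). With Compound in AML cells 10 rose and 1 fell (median 0.53), among them Csf1r, the M-CSF receptor (2.79, SE 0.14, adjusted p = 1.86e-10), and Il4ra (1.88, adjusted p = 9.18e-11). In LSK cells Dox raised 3 and lowered 5 (median -0.05), with Il18r1, an IL-18 receptor chain, at 2.60 (adjusted p = 2.69e-09), Il10ra at 1.68 (adjusted p = 1.28e-06) and Il1r1 at -1.08 (adjusted p = 7.98e-06). Compound in LSK cells raised 9 and lowered 3 (median 0.86), with the interferon receptor chain Ifnar1 at 1.91 (adjusted p = 1.72e-10) and Il10rb at 1.23 (adjusted p = 8.74e-09).

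Ligand RNA rose most in LSK cells with Compound. Of 10 ligands tested (of 16), 8 rose and 0 fell there, with a median of 2.78. Il1b, which encodes IL-1 beta, read 3.69, 2.92 and 3.09 on LSK Control and 11.06 and 10.95 on LSK Compound arrays, a difference of 7.77 (SE 0.19, limma adjusted p = 1.15e-14). Il6 read 2.42, 1.83 and 1.97 against 8.52 and 8.41 (6.39, SE 0.18, adjusted p = 5.72e-14), and Il1a rose by 7.41 (SE 0.29, adjusted p = 2.72e-12). Neither group overlapped the other for Il1b or Il6. Ifng, the ligand of Ifngr1, was chosen after its values were seen: it read 1.77, 2.26 and 2.35 on LSK Control and 6.20 and 6.93 on LSK Compound arrays (4.44, adjusted p = 1.06e-11), and 1.97 to 2.47 on the arrays of the other 4 groups. T and NK cells are known for making it. The mean of 4 T and NK cell markers was 2.47 to 2.59 in LSK Control and 2.37 to 2.51 in LSK Compound. Cd3g and Ncr1 were below the filter level on each LSK Compound array used. Cd3e read 2.47 and 2.33 there, the latter below the filter level. Gata3 was above that level, at 3.29 and 3.32 against 3.38, 3.54 and 3.39 on LSK Control arrays. Only 2 of the 4 could be tested, of which neither passed by limma. Which cells held the Ifng RNA was not tested. The lists of receptors and ligands are drawn with the receptor genes in the heatmap of single arrays.

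In AML cells Compound raised 4 ligands and lowered 0 (median 0.42), led by Csf1, the ligand of Csf1r (3.07, SE 0.13, limma adjusted p = 1.93e-11). Il6 was at 1.04 (adjusted p = 8.66e-05) and Il1a at 1.39 (adjusted p = 0.000476), from Control readings near or below the filter level (2.32 to 2.41). Il6 read 1.70, 1.80 and 1.69 on AML Control and 3.16, 2.80 and 2.36 on AML Compound arrays. Il1a read 2.36, 2.32 and 1.96 against 3.28, 3.43 and 4.09. Dox raised 1 and lowered 1 in AML cells. Il33 read 2.31, 2.38 and 2.12 on AML Control and 5.69, 5.59 and 5.54 on AML Dox arrays (3.33, SE 0.09, adjusted p = 2.07e-14), and oncostatin M (Osm), which signals through gp130, fell by 1.24 (adjusted p = 1.47e-05). In LSK cells Dox raised Osm by 1.21 (adjusted p = 0.000125) and no other ligand passed. Csf3, the ligand of Csf3r, did not pass in any of the 4 responses, and its level was 2.18 to 2.69 on all 17 arrays. It was singled out after its values were seen.

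Of 16 JAK and STAT pathway genes tested (of 19), 7 rose and 6 fell with Dox in AML cells, beside 23.0% and 25.6% of all genes, led by the kinase Jak2 (2.94, SE 0.10, limma adjusted p = 1.19e-13) and Stat4 (2.04, adjusted p = 1.59e-11), with the inhibitory phosphatase Ptpn6 at -1.17 (adjusted p = 5.10e-10). Compound in AML cells raised 3 and lowered 9, beside 12.8% and 19.2% of all genes, with a list median of -0.36. Stat4 at 1.66 and Jak2 at 1.34 were among the 3 that rose. In LSK cells 4 rose and 2 fell with Dox, where Stat3 gained 0.81 (adjusted p = 4.29e-06), and 6 rose and 3 fell with Compound, where Jak2 gained 2.08 (adjusted p = 1.19e-10). Of 8 IL-1 pathway transducers tested (of 9), the counts of higher and lower were 2 and 3 in AML Dox, 2 and 4 in AML Compound, 1 and 0 in LSK Dox, and 2 and 2 in LSK Compound. Irak3, an inhibitor of IL-1 signalling, fell by 2.45 with Dox in AML cells (adjusted p = 9.49e-13) and rose by 1.10 with Compound (adjusted p = 1.85e-07).

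Among 16 induced targets and feedback inhibitors tested (of 17), 9 fell and 3 rose with Dox in AML cells (median -0.45). Ccnd2, a cyclin that cytokines induce, fell by 3.16 (SE 0.09, limma adjusted p = 2.16e-14) and the kinase Pim1 by 2.19 (adjusted p = 6.85e-11), while Socs2, a feedback inhibitor of cytokine receptors, rose by 3.78 (SE 0.11, adjusted p = 4.18e-14). AML Compound raised 6 and lowered 3 (median 0.16), with Socs2 at 2.41 (adjusted p = 6.46e-11) and the checkpoint ligand Cd274 at 2.0 (adjusted p = 1.51e-09). In LSK cells Dox raised 2 and lowered 3 (median -0.15), and Compound raised 11 and lowered 0 (median 1.06). The interferon-induced chemokines Cxcl10 and Cxcl9 rose there by 7.81 (SE 0.15, adjusted p = 9.97e-16) and 5.88 (SE 0.15, adjusted p = 1.43e-14), and in the AML minus LSK comparison Cxcl9 differed by -6.30 and Cxcl10 by -6.16.

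Of 12 myeloid transcription factor genes, 9 fell and 2 rose with Dox in AML cells (median -0.93). Cebpb fell by 1.94 (SE 0.10, limma adjusted p = 4.12e-11) and Cebpa, which is needed to make granulocytes, by 1.92 (SE 0.12, adjusted p = 2.77e-10), and Klf4, itself a Dox-driven transgene, rose by 5.87. LSK Dox raised 2 and lowered 5 (median -0.25), with Cebpa at -0.79 (adjusted p = 0.000118) and Klf4 at 4.38. AML Compound raised 4 and lowered 2 (median 0.10), with Irf8, a monocyte factor, at 1.98 (adjusted p = 3.27e-09) and Cebpa at -1.14 (adjusted p = 1.14e-06). LSK Compound raised 3 and lowered 2 (median 0.04), with Gfi1 at 2.55 (adjusted p = 5.58e-12), Cebpb at 1.45 (adjusted p = 2.55e-08) and Cebpa at -1.55 (adjusted p = 6.01e-08).

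**Figure D4:**
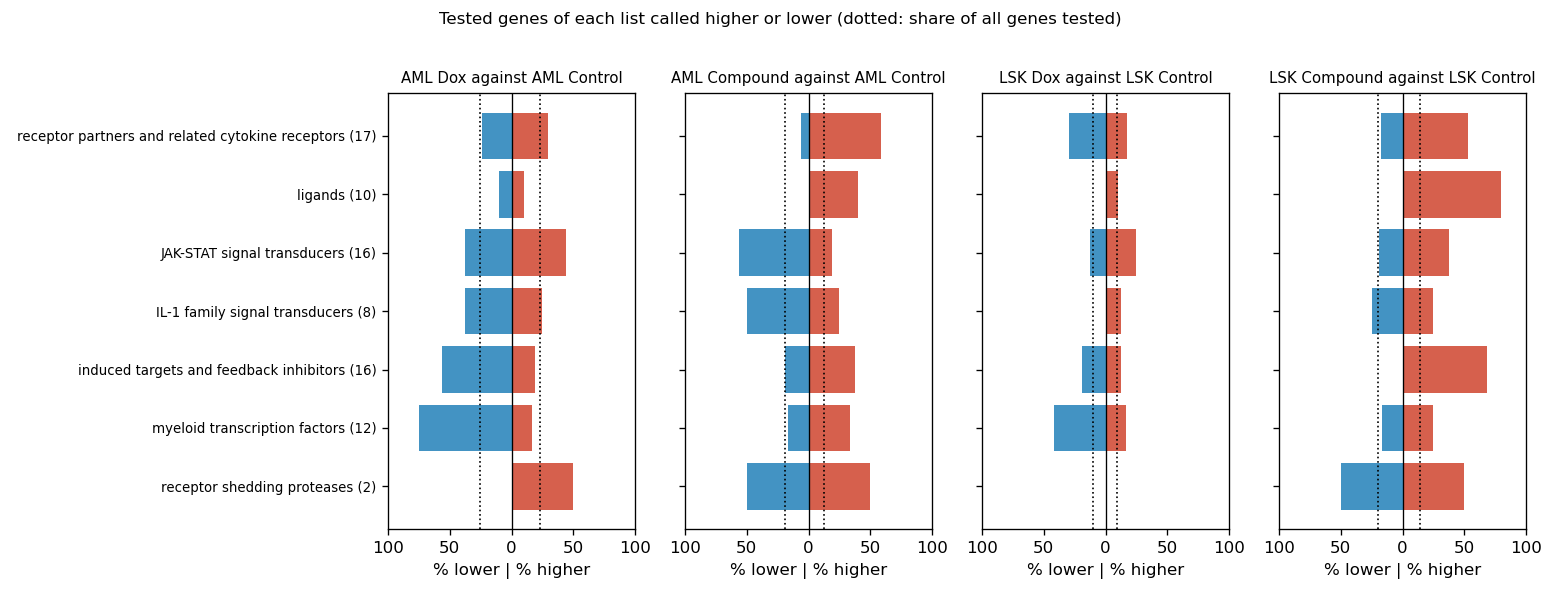
Percentage of the tested genes of each of 7 pathway lists (number in brackets) that were higher (red, right) or lower (blue, left) at a limma adjusted p under 0.05, in each treatment against its control. Dotted lines mark the share of all genes tested. LSK Compound has 8 of 10 ligands and 11 of 16 induced targets higher and none of either lower.

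Markers of other myeloid cells moved with some of these groups. The mean of 7 monocyte and macrophage markers per array was 5.30 to 5.37 in AML Control, 4.92 to 5.01 in AML Dox and 6.93 to 7.14 in AML Compound, where 6 of 7 rose and 0 fell. In LSK cells it was 5.99 to 6.04 in Control, 5.85 to 5.98 with Dox and 6.34 to 6.52 with Compound, where 3 rose and 2 fell. All 7 were above the filter level in every group. Of 8 mast cell and basophil markers, 4 were above the filter level on every array of AML Control and of LSK Dox. In AML Compound, LSK Control and LSK Compound it was 5, and in AML Dox 1. Of 6 tested, 3 fell and 0 rose with Dox in each cell type, with Cpa3 at -2.71 and Mcpt8 at -2.68 in LSK cells. With Compound 2 rose and 1 fell in AML cells. In LSK cells with Compound 2 rose (Cpa3 1.63 and Hdc 2.76) and 2 fell, with Mcpt8 at -3.18. Progenitor markers were the check on the labelled LSK cells, though Ly6a, the gene of Sca1, had no probe set naming it alone. The mean of the other 5 was 6.03 to 6.18 in LSK Control and 6.55 to 6.61 with Dox (2 of 4 tested rose and 1 fell). With Compound it was 6.79 to 7.0 (2 rose and 2 fell). Slamf1, which is part of these means, was below the filter level in LSK Control and LSK Dox. It read 3.72 and 4.21 on the LSK Compound arrays used, but was not tested, since the filter asked for at least 3 arrays. Procr rose by 2.78 with Dox and 2.72 with Compound, while Kit differed by -0.76 with Dox and Cd34 and Cd48 by -0.72 and -0.79 with Compound. In AML cells with Compound the progenitor mean was 5.78 to 5.83, and 3 of 4 rose and 1 fell. Megakaryocyte markers moved with Compound too. Their mean was 3.04 to 3.35 over the AML Control and AML Dox arrays (limma adjusted p of 0.146 to 0.431 for the 4 genes tested) and 5.25 to 5.49 in AML Compound, where Ppbp (7.73) and Pf4 (1.63) rose and none fell. In LSK cells it was 3.83 to 4.21 in Control, 4.58 to 4.73 with Dox and 5.28 to 5.34 with Compound, and in each treated group 2 of 4 rose and 2 fell, with Ppbp at 3.61 and 4.19. The list for the MLL-AF9 program (Hoxa9, Hoxa10, Meis1 and Mef2c) read 6.25 to 6.45 in AML Control and 5.92 to 5.96 in LSK Control, with 3 of the 4 higher in AML Control and Mef2c lower (-2.48). It read 7.29 to 7.36 in AML Dox, where all 4 rose, 6.55 to 6.76 in AML Compound (2 rose, 1 fell), 6.16 to 6.25 in LSK Dox (1 rose) and 5.62 to 5.81 in LSK Compound (1 fell). The part of these markers in the receptor differences was not tested.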

How the data were processed

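RNA from 18 samples in 6 groups of 3 was read on Affymetrix whole-transcript arrays with a WT labelling kit, per the labels. The authors deposited log2 expression for 41345 probe sets, computed by RMA per the submitters' processing notes, and no genome build is named there. Values were used without further scaling, and scanner files were not used here.

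The probe table named 1 gene for 23521 probe sets and several for 1814, and did not list 16010. Where a gene had several, the probe set of highest mean stood for it (22180 genes). Of these, 16337 genes above the 40th percentile of an array on at least 3 arrays were tested. A gene above that level only on the 2 LSK Compound arrays was therefore not tested. The test was limma (version 3.58.1, under R 4.3.3) on 17 arrays, with 1 mean per group (11 residual degrees of freedom, prior SD 0.14), and p-values were adjusted by Benjamini-Hochberg over all genes tested in a comparison, with a threshold of 0.05. LSK Compound replicate 1 was left out. The number of arrays limits the precision.

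The receptor genes and the pathway and marker lists were chosen with earlier results of these data known. Every receptor gene is named, with at most the 3 genes of smallest p from each pathway list in a comparison and the 2 genes nearest each receptor in profile. Marker genes are named from the marker lists, and Ifng and Csf3 were singled out after their values were seen. The alternatives were all 18 arrays, array weights, a replicate block, leaving out each array, only the groups compared, centring on the median, quantile normalization, other filters and the mean of all probe sets of a gene. The limma step was tested on simulated data. Promoter windows came from RefSeq (GRCm38.p6).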

Additional observations from a re-analysis of the deposited data

Results flagged for a closer look

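The response to Dox differed between AML and LSK cells for 6 receptor genes by the limma test of the difference (AML minus LSK, log2). The values were -1.02 for Csf2ra, -0.89 for Csf3r, 0.98 for Il3ra, -1.50 for Il6ra, 1.83 for Il6st and -1.88 for Ifngr1, beside 18.6% of all genes with a higher and 21.5% with a lower response in AML cells.

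The response to Compound differed for 5, by 0.71 for Csf3r, -0.59 for Il3ra, 1.24 for Il6ra, 0.68 for Il6st and 0.56 for Ifngr1, beside 8.69% of all genes with a higher and 8.37% with a lower response in AML cells. With all 18 arrays 1 of these 5 passed. The Il3ra call was also lost under 11 other alternatives, and the Il6st call without LSK Compound replicate 2 (0.44, adjusted p = 0.128). The LSK side of these rests on 2 arrays.

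On LSK Compound replicate 1, the array left out, Il3ra read 5.63, above the LSK Control arrays (4.80, 4.63 and 4.56), as it did on the other LSK Compound arrays (5.23 and 5.36). The same array correlated with all others at only 0.638 to 0.672.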

How the results depend on the processing

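Of 55 receptor differences that passed, 46 passed in the same direction under every alternative other than all 18 arrays (9 others and 17 arrays left out in turn) and 9 were lost under at least 1. With all 18 arrays the genes called fell from 7935 to 4240 for AML Dox, 5232 to 1064 for AML Compound, 3127 to 602 for LSK Dox, 5590 to 2925 for LSK Compound, 6547 to 2227 for the Dox difference, 2786 to 520 for the Compound difference, 4828 to 1433 for AML against LSK Control, 7791 to 3888 for Dox against Compound in AML cells and 5283 to 2547 in LSK cells. Receptors called went from 7 to 0 for AML Compound (3 at an unadjusted p under 0.05), 7 to 4 for LSK Compound, 6 to 3 and 5 to 1 for the Dox and Compound differences, 7 to 1 for AML against LSK Control and 7 to 3 for LSK Dox against Compound. Signs turned for Csf2ra (-0.27) and Ifngr1 (-1.57) in LSK Compound, for Csf2rb2 (1.65) and Il1r2 (0.030) in the Compound difference, and for Csf2ra (0.17), Csf3r (0.20) and Ifngr1 (1.49) in LSK Dox against Compound.

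Array weights, whose fit stopped before convergence, gave 8685 genes for LSK Compound, 4784 for the Compound difference and 8641 for LSK Dox against Compound, 5 receptors for LSK Dox in place of 3, and turned Csf2rb in the Dox difference (0.0017) and Il6ra in AML Dox against Compound (0.038). The cause was not tested. With 1 array left out, differences that did not pass changed sign: Csf2rb in AML Dox ran from -0.45 to 0.0042 and in the Dox difference from -0.24 to 0.21, Il3ra in AML Compound from -0.022 to 0.10, Il6st in LSK Dox from -0.044 to 0.10, in LSK Compound from -0.34 to 0.13 and in LSK Dox against Compound from -0.10 to 0.37, Csf2ra in the Compound difference from -0.00014 to 0.12, and Il6ra in AML Dox against Compound from -0.16 to 0.20.

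The replicate block left the called genes between 2624 and 7886 across the 9 comparisons, each within 1.5 times the count without it. Csf2rb2 passed in the Dox difference with it (0.52, adjusted p = 0.0371, against 0.0641 without), and no other receptor call changed. Same-numbered arrays correlated at -0.06 to 0.10 in their deviations from the group means, so the numbers were not taken to pair the arrays.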
